A study of Mus musculus with 16 samples.

Results

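The genes described here are 10 components of the switch that lets a cell leave G1: the D-type cyclins Ccnd1, Ccnd2 and Ccnd3, the kinases Cdk4, Cdk6 and Cdk2, the inhibitors Cdkn2c, Cdkn1b and Cdkn1c, and the pocket protein Rb1. They were chosen by name, as 10 of the 25105 genes in the expression table, and all 10 were found. The data were poly(A) RNA-seq libraries from pancreatic islet cells of Grp78 flox/flox mice, dispersed, transduced with adenovirus and kept at 15 mM glucose for 72 h. Every one of the 16 libraries carried the floxed Grp78 alleles and had received a virus. The 4 groups were Ad-LacZ + DMSO (the control virus with vehicle), Ad-Cre + DMSO (the recombinase virus with vehicle), Ad-LacZ + JNK Inh and Ad-Cre + JNK Inh, in which the pan-JNK inhibitor JNK-IN-8 was present from the start. Each group held 4 libraries, from preparations F1, M1, M2 and F2 (2 female and 2 male), each of which contributed 1 culture to every group. The sample titles join a pair of animal numbers for each preparation, so a preparation can hold pooled animals. The study's reagent list names the CMV promoter for both viruses, and CMV is active in many cell types. The study describes the mice as adult, and the labels give no age for a preparation. Its methods give a wide range of ages for the mice of its ex vivo islet work, so preparations can differ in age.

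In the textbook scheme, D-type cyclins accumulate in response to mitogens and bind Cdk4 or Cdk6, and the active kinase phosphorylates the retinoblastoma protein. Phosphorylated RB1 releases E2F transcription factors, which switch on cyclin E and the genes of DNA replication, and cyclin E with Cdk2 completes the transition. INK4 proteins such as p18 (Cdkn2c) block Cdk4 and Cdk6 alone, while KIP proteins such as p27 (Cdkn1b) and p57 (Cdkn1c) bind cyclin-kinase pairs. In mouse β cells, cyclin D2 and Cdk4 are known for their part in postnatal expansion, and Cdkn1c is an imprinted gene.

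Depth was between 7720000 and 25470000 reads per library, and the lowest value belonged to the Ad-Cre + JNK Inh library of preparation F2, the only one labelled with another sequencing run and lane. Hspa5, which encodes GRP78 and is the gene the Cre virus targets, was higher in the libraries labelled as knockdown: its mean went from 438 ± 49.0 RPKM (SD, n = 4) in Ad-LacZ + DMSO to 1264 ± 231 in the libraries labelled Ad-Cre + DMSO, with a log2 fold change of 1.54. RPKM is a read count scaled to gene length and library depth. It is given once per gene, so reads from exons outside the deleted part were counted too and this value does not check the deletion. The study's own qPCR of Grp78 was not analysed here. All 9 β cell markers were above 1 RPKM in every library, and their summed level ranged from 33252 to 84724 RPKM. It was lowest in M2 in each group. The stellate cell and fibroblast markers, which define other cells that grow in such cultures, summed to 126 to 1845 RPKM, with F1 lowest and M2 highest in each group.

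Levels of the 10 genes spanned a wide range, and since RPKM is scaled to length they can be set beside each other. In Ad-LacZ + DMSO the order of mean RPKM was Ccnd2 (107), Ccnd1 (37.7), Cdk4 (31.1), Cdkn1b (16.8), Rb1 (9.27), Ccnd3 (3.38), Cdkn2c (1.55), Cdk2 (0.513), Cdkn1c (0.255) and Cdk6 (0.195). The ranges of neighbors in this order overlapped only for Ccnd3 and Cdkn2c, Cdk2 and Cdkn1c, and Cdkn1c and Cdk6. In Ad-Cre + JNK Inh the top of the order was no longer separated, with Ccnd2 at 67.7 and Ccnd1 at 65.6. Cdkn1c had moved from the ninth to the seventh place by its mean. It was above the next gene, Cdkn2c, in 2 of 4 libraries, those of M2 and F2, and their ranges overlapped.

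**Figure D1:**
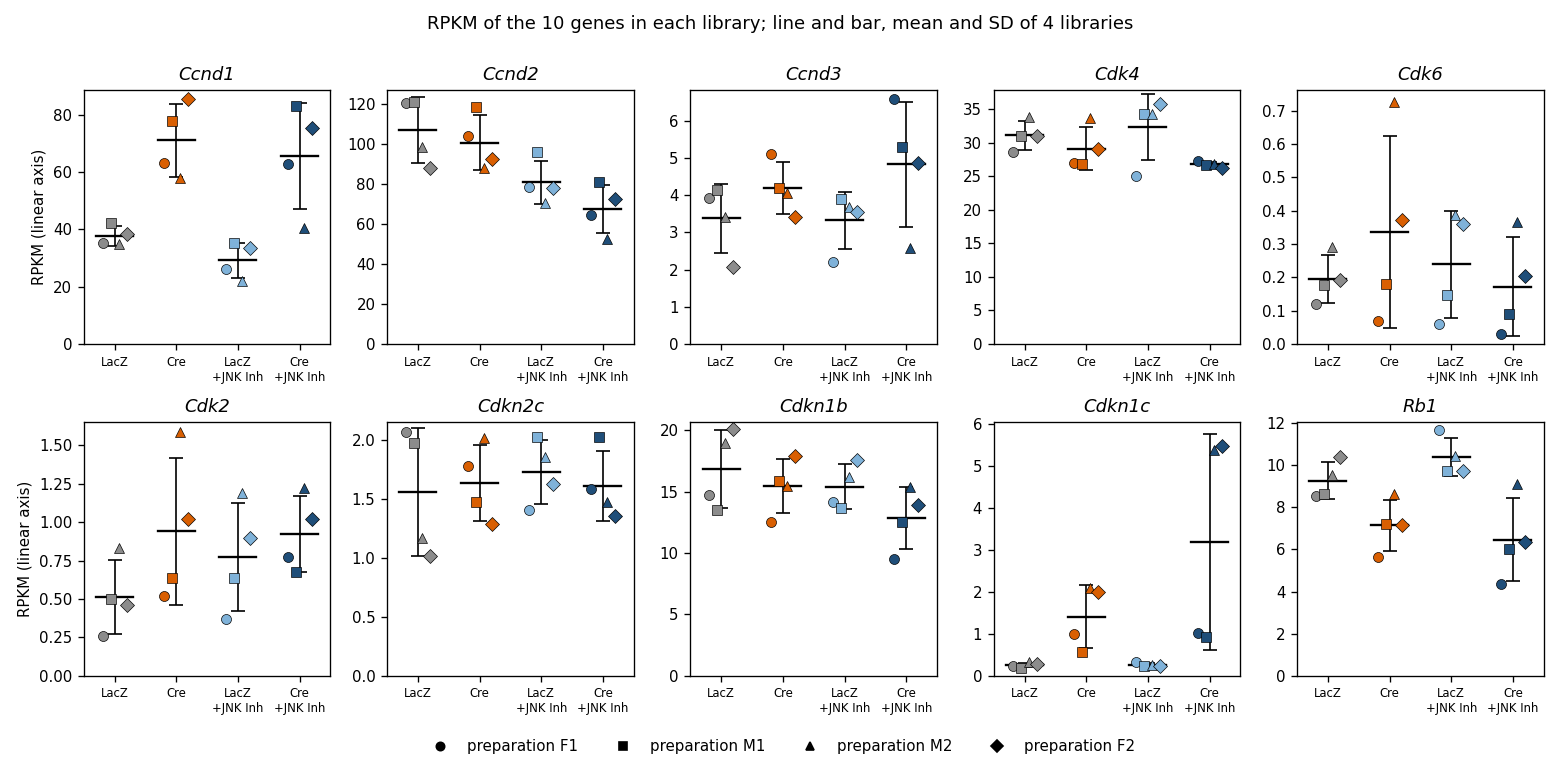
RPKM on a linear axis from 0 for each of the 10 genes, by group; points are libraries with a symbol per preparation, lines and bars are the mean and SD of 4 libraries. Ccnd1 is higher in every library labelled Ad-Cre than in any Ad-LacZ library with the same vehicle or inhibitor, and Cdkn1c lies at 0.187 to 0.324 RPKM in all 8 Ad-LacZ libraries.

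The first comparison asked what the Cre virus did to the switch in vehicle. Of the 10 genes, 7 exceeded 1 RPKM in 4 or more of the 8 libraries and were tested, with limma on log2 values and adjustment over all 11590 genes tested. Ccnd1 rose, and the other 6 did not pass an adjusted p of 0.05. Across all tested genes 19.0% passed. The median log2 fold change of the 7 was -0.06, against 0.02 over all genes tested. In bulk RNA, fewer cells of a type and less RNA per cell cannot be told apart, which holds for each value below.

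Ccnd1 encodes cyclin D1, the D cyclin most closely tied to growth factor signals. It lies on chromosome 7 of GRCm38, from 144929931 to 144939925 on the minus strand, with 5 merged exons. In F1, M1, M2 and F2 it measured 35.3, 42.3, 34.8 and 38.4 RPKM in Ad-LacZ + DMSO, and 63.3, 77.8, 58.1 and 85.5 RPKM in Ad-Cre + DMSO. The groups did not overlap, and Ccnd1 was higher with Ad-Cre in 4 of 4 preparations. The ratio of the means was 1.89, and the log2 fold change was 0.91 ± 0.15 (SE), with an adjusted p of 0.00677 by limma. Without preparation F2 the log2 fold change was 0.84 and the adjusted p 0.0572 by limma, where 3.34% of all genes passed. Overlap and exact permutation tests were read on RPKM as deposited unless scaled RPKM is named, which is RPKM times the trimmed-mean multiplier of the library. Groups did not overlap for 1 of the 7 tested genes, Ccnd1, and for 27.7% of all genes tested. On scaled RPKM this held for 2 of the 7, Ccnd1 and Rb1, and for 27.0% of all genes tested.

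The same comparison was made in cultures that held the JNK inhibitor, with no library in common with the first. Ccnd1 measured 26.1, 35.2, 22.0 and 33.5 RPKM in Ad-LacZ + JNK Inh and 63.0, 83.2, 40.7 and 75.4 RPKM in Ad-Cre + JNK Inh. Again every Ad-Cre library was above every Ad-LacZ library, and M2 was lowest in both groups. The log2 fold change was 1.27 ± 0.25, with an adjusted p of 0.00805 by limma, and Ccnd1 was the only one of 7 tested genes to pass, where 21.7% of all 11598 genes did. It missed the threshold without M1 or without F2, at adjusted p-values up to 0.062, and passed at 0.0268 without only the F2 library from the other run. Of all genes, 521 passed without M1 and 528 without F2, against 2520 in the main fit. The difference between the effect with and without inhibitor was 0.36 ± 0.31 on the log2 scale (adjusted p = 1.00 by limma), and none of 9 tested genes passed that interaction test, which 0.0163% of all genes did.

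In the gene annotation, 1100 exon bases of Ccnd1, or 23.4% of its exon length, lie opposite exons of LTO1. Whether counting used strand is not given in the sources used here, and LTO1 averaged 3.91 RPKM over the 16 libraries, well under Ccnd1.

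Ccnd2, which encodes cyclin D2 and was the most abundant of the 10 genes, did not pass for the virus in either condition. It lies on chromosome 6 from 127125162 to 127152193 on the minus strand. In F1, M1, M2 and F2 it measured 121, 121, 98.9 and 88.0 RPKM in Ad-LacZ + DMSO and 104, 119, 88.1 and 92.5 RPKM in Ad-Cre + DMSO. The groups overlapped, and the log2 fold change was -0.06 with a 95% confidence interval from -0.46 to 0.34. With the inhibitor it was -0.10, with an interval from -0.53 to 0.33. Quantile normalization moved that value to -0.44, with an adjusted p of 0.0498 by limma.

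Ccnd2 values were lower in the cultures with the inhibitor. Ccnd2 measured 78.7, 96.0, 70.6 and 78.2 RPKM in Ad-LacZ + JNK Inh, and 64.5, 81.0, 52.5 and 72.8 RPKM in Ad-Cre + JNK Inh. It was below the vehicle culture of the same preparation in 4 of 4 preparations with either virus. In Ad-Cre cells the groups did not overlap (11.5% of genes tested), and the exact two-sided permutation test gave p = 0.0286, the smallest that 4 against 4 allows. On scaled RPKM they overlapped, from 79.3 to 120 in Ad-Cre + DMSO and from 56.2 to 89.9 in Ad-Cre + JNK Inh, with an exact permutation p of 0.0857, where 6.62% of genes tested did not overlap. The log2 fold change there was -0.45 ± 0.18, which did not pass adjustment over 11503 genes (adjusted p = 0.468 by limma) but did when preparation entered as a block (adjusted p = 0.0361 by limma). With that block 6.08% of all genes passed. In Ad-LacZ cells the log2 fold change was -0.38 ± 0.17 (adjusted p = 0.808 by limma), the groups overlapped, and the exact permutation p was 0.0571.

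Counts over all genes frame those values. Without the block, 0.0% of genes passed in the inhibitor comparison in Ad-Cre cells by limma, with 1097 genes at an unadjusted p under 0.05, and 0.206% passed in Ad-LacZ cells. None of the 9 and none of the 7 tested genes of the switch passed in these comparisons. In Ad-LacZ cells groups overlapped for each of the 7 tested genes, while they did not for 4.84% of all genes tested, or 4.63% on scaled RPKM. The vehicle groups served as the reference for the inhibitor and as groups of the virus comparison, so these comparisons share libraries.

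Under the thresholds the study used, an unadjusted p under 0.05 with a fold above 1.5 for the virus and above 1.2 for the inhibitor in Ad-Cre cells, 1 gene passed in each: Ccnd1 for the virus, where 10.2% of all genes passed, and Ccnd2 for the inhibitor, where 8.81% did. The latter count was 0 without F1, without M1, without F2 and without only the F2 library of the other run, and it was 2 without M2.

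**Figure D2:**
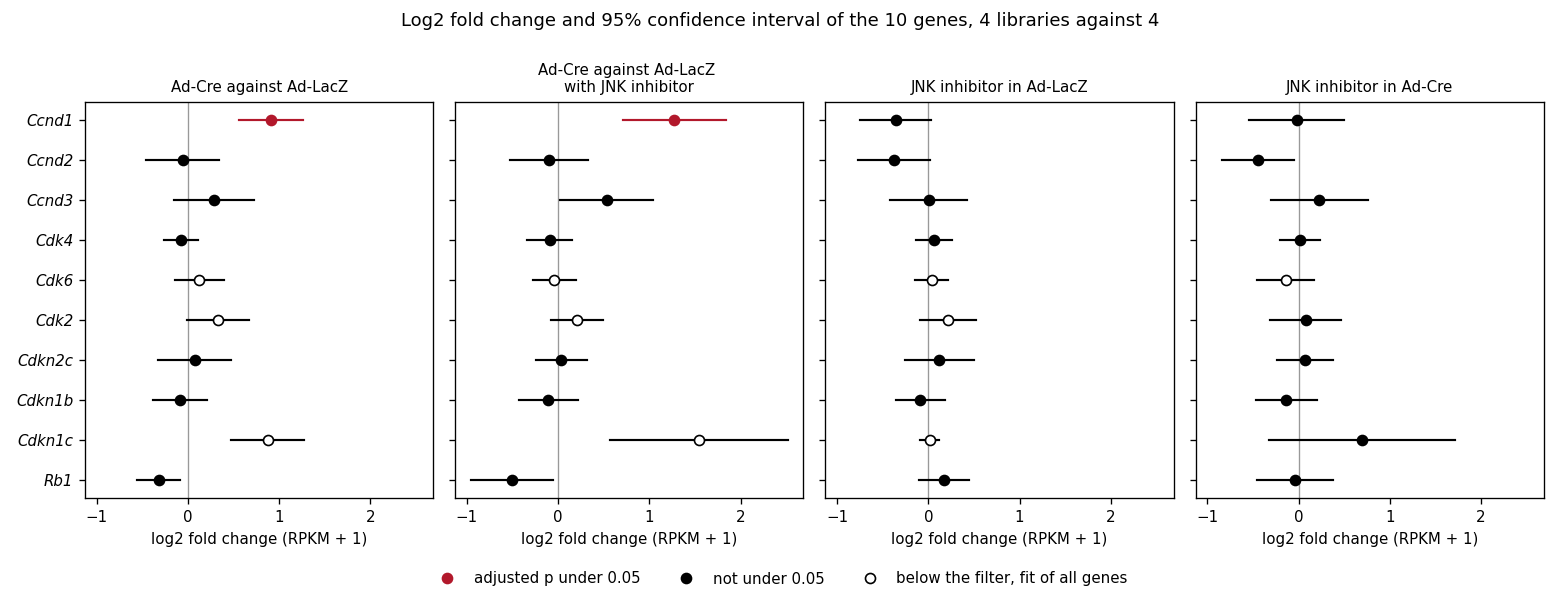
Log2 fold change of RPKM + 1 with 95% confidence intervals for the 10 genes in the 4 comparisons; red points passed an adjusted p of 0.05, black points did not, and open points are genes below the filter, taken from the fit of all genes. Ccnd1 alone is red, at 0.91 in vehicle and 1.27 with the inhibitor.

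Ccnd3, which encodes cyclin D3, was the minor D cyclin. Its range was 2.06 to 4.13 RPKM in Ad-LacZ + DMSO, 3.41 to 5.11 in Ad-Cre + DMSO, 2.19 to 3.89 in Ad-LacZ + JNK Inh and 2.58 to 6.60 in Ad-Cre + JNK Inh. The virus effect was 0.29 ± 0.19 on the log2 scale in vehicle, higher in 4 of 4 preparations, and 0.53 ± 0.23 with the inhibitor, higher in 3 of 4. Neither passed adjustment (adjusted p = 0.332 and 0.124 by limma). M2 went the other way with the inhibitor, at 3.69 RPKM in Ad-LacZ and 2.58 in Ad-Cre. Without M2 the log2 fold change was 0.75 and the adjusted p 0.0153 by limma, where 31.8% of all genes passed.

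The make-up of the D cyclins does not depend on how libraries are scaled, so it was taken as a share of their summed RPKM. The share is computed from the Ccnd1, Ccnd2 and Ccnd3 values above, so its tests restate them and are not separate results. Ccnd2 made up 72.1% ± 2.84 (SD, n = 4) of the sum in Ad-LacZ + DMSO and 57.3% ± 4.26 in Ad-Cre + DMSO. The shares in F1, M1, M2 and F2 were 75.5%, 72.3%, 72.1% and 68.5% with Ad-LacZ and 60.4%, 59.1%, 58.6% and 50.99% with Ad-Cre. The groups did not overlap, and the share was lower in 4 of 4 preparations, with a mean difference of -14.8 percentage points (exact two-sided permutation p = 0.0286, the smallest possible). An exact sign-flip test within preparations gave p = 0.125, also the smallest possible with 4 pairs.

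Ccnd1 took up nearly the whole difference, rising from 25.6% ± 3.21 to 40.3% ± 4.65 of the sum, while Ccnd3 held 2.25% ± 0.434 and 2.41% ± 0.508. With the inhibitor, Ccnd2 went from 71.5% ± 2.64 to 49.6% ± 3.53 and Ccnd1 from 25.6% ± 2.67 to 46.9% ± 3.17. The virus effect on the Ccnd2 share was larger with the inhibitor in 4 of 4 preparations, with a difference between the effects of -7.07 ± 3.75 percentage points (SD, n = 4). The exact sign-flip p of that difference was 0.125, which is as low as 4 pairs can give. In Ad-LacZ cells the inhibitor left the Ccnd2 share at 71.5% against 72.1% (exact permutation p = 0.8), and the mean of Ccnd1 was 29.2 against 37.7 RPKM. The summed level of the 3 cyclins was 148 RPKM in Ad-LacZ + DMSO, 176 in Ad-Cre + DMSO, 113 in Ad-LacZ + JNK Inh and 138 in Ad-Cre + JNK Inh. It was higher with Ad-Cre in vehicle (exact permutation p = 0.114) and lower with the inhibitor in Ad-Cre cells (p = 0.0857) in 4 of 4 preparations each, with overlapping groups.

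**Figure D3:**
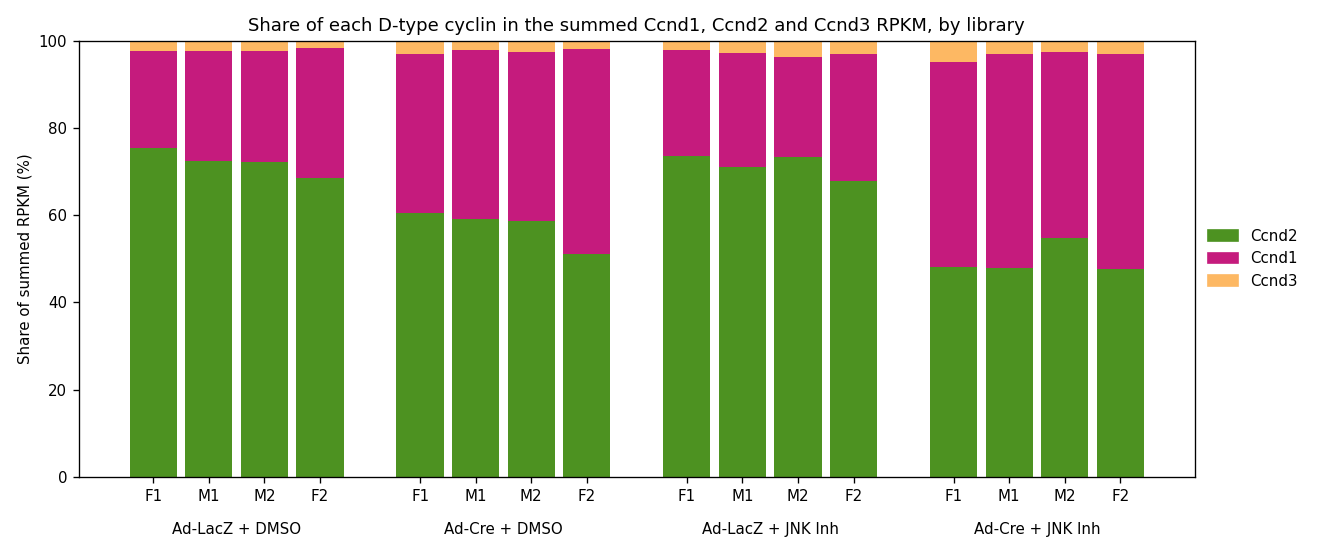
Stacked bars of the share, in percent, of Ccnd2, Ccnd1 and Ccnd3 in their summed RPKM, 1 bar per library, grouped by treatment. Ccnd2 holds 67.9% to 75.5% in the 8 Ad-LacZ libraries and 47.6% to 60.4% in the 8 libraries labelled Ad-Cre.

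Among the kinases, Cdk4, the main partner of D cyclins in mouse islets, passed in no comparison. It lies on chromosome 10 from 127063534 to 127067920 on the plus strand. It ranged from 28.6 to 33.9 RPKM in Ad-LacZ + DMSO, 26.8 to 33.7 in Ad-Cre + DMSO, 25.1 to 35.7 in Ad-LacZ + JNK Inh and 26.3 to 27.3 in Ad-Cre + JNK Inh. The virus effect was -0.07 on the log2 scale, with a 95% confidence interval from -0.26 to 0.11, and -0.09 with the inhibitor, with an interval from -0.34 to 0.15. The inhibitor effects were 0.02 in Ad-Cre and 0.06 in Ad-LacZ cells. Tspan31 lies opposite 19.7% of the Cdk4 exon length and averaged 53.6 RPKM, above Cdk4 itself, so without a stated counting strand the level of Cdk4 is uncertain.

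Cdk6, the other partner of D cyclins, was at the bottom of the order. Its level ranged from 0.0294 to 0.727 RPKM, on 6 to 228 reads per library, and it passed the filter in none of the comparisons. Cdk4 made up 99.4% ± 0.183 of the summed Cdk4 and Cdk6 RPKM in Ad-LacZ + DMSO and 98.9% ± 0.805 in Ad-Cre + DMSO (exact permutation p = 0.343). F1 held the lowest and M2 the highest Cdk6 in each of the 4 groups, as they did for the summed stellate cell and fibroblast markers, whose part in it was not tested.

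Cdk2, the kinase that cyclin E activates, was also below 1 RPKM on average in each group: 0.513 ± 0.238, 0.939 ± 0.481, 0.774 ± 0.351 and 0.921 ± 0.247 RPKM in Ad-LacZ + DMSO, Ad-Cre + DMSO, Ad-LacZ + JNK Inh and Ad-Cre + JNK Inh. M2 was highest in each. The virus effect in a fit of all genes without a filter was 0.33 ± 0.15 on the log2 scale in vehicle and 0.21 ± 0.12 with the inhibitor, higher in 4 of 4 preparations in both, and neither passed (adjusted p = 0.228 and 0.347 by limma). With preparation as a block in that fit, Cdk2 passed in vehicle (adjusted p = 0.0459 by limma) and not with the inhibitor (adjusted p = 0.168 by limma). A log2 of RPKM + 1 understates the change of a gene this low: the ratio of means in vehicle was 1.83.

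Of the inhibitors, Cdkn1b, which encodes p27 and was the most abundant of the 3, passed in no comparison. Its means were 16.8 ± 3.19, 15.4 ± 2.19, 15.4 ± 1.81 and 12.8 ± 2.51 RPKM in Ad-LacZ + DMSO, Ad-Cre + DMSO, Ad-LacZ + JNK Inh and Ad-Cre + JNK Inh. The 4 log2 fold changes ran from -0.13 to -0.09, and the virus effect in vehicle had a 95% confidence interval from -0.38 to 0.21. Cdkn2c, which encodes p18, averaged 1.55 to 1.73 RPKM in the 4 groups on 28 to 124 reads per library. Its log2 fold changes ran from 0.04 to 0.12, none of which passed.

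Cdkn1c, which encodes p57, had the highest ratio of means of the 10 genes in both virus comparisons. It lies on chromosome 7 from 143458339 to 143461050 on the minus strand. In F1, M1, M2 and F2 it measured 0.241, 0.187, 0.320 and 0.271 RPKM in Ad-LacZ + DMSO, and 0.997, 0.576, 2.08 and 1.98 RPKM in Ad-Cre + DMSO. Every Ad-Cre library was above every Ad-LacZ library, on 28 to 95 reads against 6 to 15. The ratio of the means was 5.53, and the exact two-sided permutation p was 0.0286.

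With the inhibitor, Cdkn1c stayed low in Ad-LacZ cells and split by preparation in Ad-Cre cells. It measured 0.324, 0.238, 0.255 and 0.231 RPKM in Ad-LacZ + JNK Inh, and 1.01, 0.921, 5.36 and 5.46 RPKM in Ad-Cre + JNK Inh. Again the groups did not overlap (exact permutation p = 0.0286), with 11 to 14 reads against 30 to 222. The ratio of the means was 12.2, but F1 and M1 were near 1 RPKM while M2 and F2 were above 5. On scaled RPKM the groups did not overlap either, with or without the inhibitor. Cdkn1c was below the filter in both comparisons and so is not among the genes to which the background shares refer.

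Cdkn1c was below the filter in both virus comparisons, so its test came from a fit of all genes. There the log2 fold change in vehicle was 0.87 ± 0.17, with an adjusted p of 0.0302 by limma, where 6.74% of 19984 genes passed. Leaving out any 1 preparation raised that adjusted p to between 0.0538 and 0.17, with log2 fold changes from 0.77 to 1.03. With the inhibitor it was 1.54 ± 0.42 (adjusted p = 0.0597 by limma), and 0.0305 with a filter at 0.1 RPKM. The inhibitor effect in Ad-Cre cells, where 5 of 8 libraries exceeded 1 RPKM and the gene was tested, was 0.70 ± 0.45 (adjusted p = 0.681 by limma), higher in 4 of 4 preparations. An antisense gene, Gm44732, lies opposite 30.7% of the Cdkn1c exon length and has no row in the table.

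Markers of other cells were summed beside Cdkn1c in each library, and their part in the Cdkn1c values was not tested. The summed macrophage and leukocyte markers were 70.1 to 78.6 RPKM in Ad-LacZ + DMSO and 69.8, 88.8, 206 and 175 RPKM in F1, M1, M2 and F2 of Ad-Cre + DMSO, and stellate and fibroblast markers were also highest in M2 and F2. In F1 the sums with Ad-LacZ and Ad-Cre were 70.4 and 69.8 RPKM for macrophage and leukocyte markers and 164 and 178 RPKM for stellate and fibroblast markers, and Cdkn1c was 0.241 and 0.997 RPKM. In M2 and F2 of Ad-LacZ + JNK Inh the sums were 304 and 313 RPKM for macrophage and leukocyte and 1244 and 717 RPKM for stellate and fibroblast markers, and Cdkn1c was 0.255 and 0.231 RPKM. Much of the former sum was 1 marker, Lyz2, which averaged 29.5 RPKM in Ad-LacZ + DMSO and 151 RPKM in Ad-LacZ + JNK Inh. The other markers of that list also had higher means in Ad-LacZ + JNK Inh than in Ad-LacZ + DMSO. Between these groups Csf1r went from 1.56 to 2.77 RPKM, C1qc from 3.24 to 7.05 RPKM and Cd68 from 6.96 to 17.6 RPKM. In Ad-Cre + JNK Inh the α cell marker sum was 21496, 12117, 26543 and 16544 RPKM in F1, M1, M2 and F2, and the δ and PP cell marker sum was 6517, 4804, 9568 and 4922 RPKM. M2 was highest in both, and F2, with as much Cdkn1c as M2, was not. In the same order the stellate and fibroblast sum was 126, 158, 775 and 429 RPKM. The macrophage and leukocyte sum was 200, 174, 292 and 239 RPKM. These 2 sums, and those of endothelial and duct cell markers, were highest in M2 and F2. The acinar cell marker sum was highest in M2 and F1, and the β cell marker sum in F1 and M1. In several of these sums a few markers made up most of the level. In Ad-Cre + JNK Inh, Gcg (α cell) averaged 19138 RPKM, and Sst and Ppy (δ and PP cell) 3877 and 2567 RPKM. Acta2 (stellate and fibroblast) averaged 294 RPKM, Spp1 and Krt7 (duct) 206 and 49.2 RPKM, and Cela1 (acinar) 5.19 RPKM. Ins1 and Ins2 (β cell) averaged 15380 and 31781 RPKM.

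**Figure D4:**
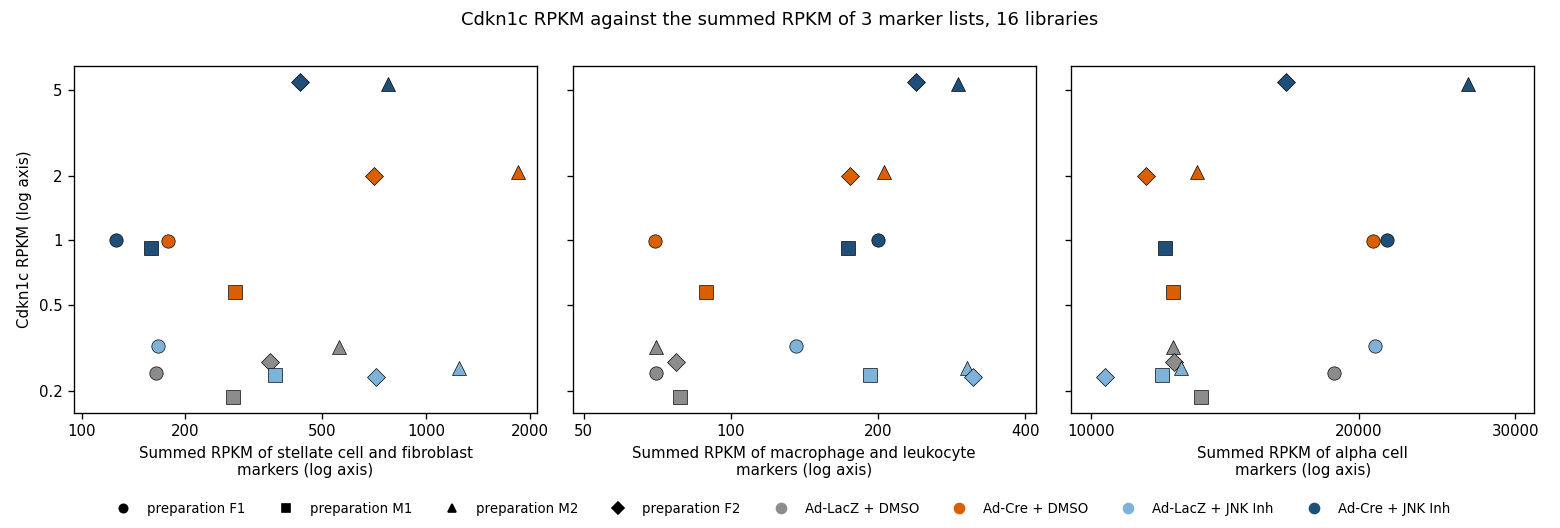
Cdkn1c RPKM against the summed RPKM of stellate and fibroblast, macrophage and leukocyte, and α cell markers, with log axes throughout, for 16 libraries; symbols are preparations and colors are groups. The 8 Ad-LacZ libraries lie between 0.187 and 0.324 RPKM of Cdkn1c, and their stellate and fibroblast sums run from 164 to 1244 RPKM and their macrophage and leukocyte sums from 70.1 to 313 RPKM.

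Rb1, which encodes the retinoblastoma protein that the kinases phosphorylate, had lower values with Ad-Cre. It lies on chromosome 14 from 73183673 to 73325822 on the minus strand. In F1, M1, M2 and F2 it measured 8.52, 8.62, 9.53 and 10.4 RPKM in Ad-LacZ + DMSO and 5.65, 7.19, 8.61 and 7.15 RPKM in Ad-Cre + DMSO. It was lower in 4 of 4 preparations, with overlap in M2 of Ad-Cre, which lay above F1 of Ad-LacZ (exact permutation p = 0.0571). On scaled RPKM the groups did not overlap (8.52 to 10.1 with Ad-LacZ and 5.97 to 7.76 with Ad-Cre, exact permutation p = 0.0286). The log2 fold change was -0.32 ± 0.10, which missed the threshold (adjusted p = 0.0625 by limma) and passed once preparation was a block (adjusted p = 0.0424 by limma), where 34.7% of all genes passed.

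With the inhibitor, Rb1 measured 11.7, 9.75, 10.4 and 9.72 RPKM in Ad-LacZ and 4.35, 6.01, 9.09 and 6.37 RPKM in Ad-Cre cells. The groups did not overlap (exact permutation p = 0.0286), and Rb1 was lower in 4 of 4 preparations. On scaled RPKM they overlapped, from 8.87 to 13.1 with Ad-LacZ and from 4.98 to 9.72 with Ad-Cre (exact permutation p = 0.0857), and Rb1 was lower in 3 of 4. In this comparison groups did not overlap for 2 of the 7 tested genes, Ccnd1 and Rb1, and for 29.7% of all genes tested, and on scaled RPKM for 1 of the 7, Ccnd1, and for 27.1% of all genes tested. The log2 fold change was -0.50 ± 0.20 (adjusted p = 0.102 by limma). It reached an adjusted p of 0.0306 by limma with RPKM as deposited, where 26.3% of all genes passed. That scaling moved the median of all genes to -0.14. Rb1 also passed with all 16 libraries fitted together (adjusted p = 0.0188 by limma), where 33.0% of all genes passed. It passed without M2 (adjusted p = 0.0201 by limma), where 31.8% did. Without F1 the log2 fold change was -0.28 (adjusted p = 0.284 by limma), where 14.3% of all genes passed. The preparations differed, with M2 at a scaled log2 difference of 0.04 and F1 at -1.23. Exons of Rcbtb2 and Lpar6 lie opposite 8.11% and 6.78% of the Rb1 exon length, and these genes averaged 2.52 and 2.25 RPKM.

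The genes around the switch were taken from 6 lists, whose counts stand beside 19.0% of all genes passing in vehicle and 21.7% with the inhibitor. With preparation as a block these shares were 34.7% and 23.9%. Of the 4 other CDK inhibitors, Cdkn1a, which encodes p21, rose from 64.6 ± 22.8 to 216 ± 33.2 RPKM with Ad-Cre in vehicle (log2 fold change 1.79, adjusted p = 0.00147 by limma) and from 76.4 ± 29.1 to 247 ± 22.4 RPKM with the inhibitor. It outweighed the other inhibitors: of the summed RPKM of the 7 inhibitors of both families, p21 held 65.7% ± 5.47 in Ad-LacZ + DMSO and 87.1% ± 1.35 in Ad-Cre + DMSO. Cdkn1b, Cdkn1c and Cdkn2c together made up 18.6 ± 2.72 RPKM in the former and 18.5 ± 2.47 in the latter (exact permutation p = 0.914). With the inhibitor the p21 share was 69.9% ± 5.03 in Ad-LacZ cells and 89.5% ± 1.68 in Ad-Cre cells. Its groups did not overlap in either condition (exact permutation p = 0.0286, the smallest possible, in both). The share is computed from the Cdkn1a and other inhibitor values, so its tests restate them and are not separate results. Among all genes tested, groups did not overlap for 27.7% in vehicle and 29.7% with the inhibitor. Cdkn2b (p15) was 9.35 ± 1.34 and 7.89 ± 1.39 RPKM in Ad-LacZ + DMSO and Ad-Cre + DMSO. Cdkn2d (p19) was 3.72 ± 0.926 and 4.50 ± 0.150 RPKM. Neither passed, and Cdkn2a (p16 and ARF), at 0.515 ± 0.240 and 0.882 ± 0.577 RPKM, was below the filter. Cdkn2b had a log2 fold change of -0.42 with the inhibitor, which did not pass (adjusted p = 0.0533 by limma). It passed with RPKM as deposited (-0.56, adjusted p = 0.0416 by limma) and with preparation as a block (adjusted p = 0.0308 by limma).

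Cyclin E is the next cyclin to act, and Ccne1 rose while Ccne2 did not. Ccne1 went from 2.26 ± 0.364 to 5.62 ± 1.76 RPKM in vehicle (log2 fold change 1.01, adjusted p = 0.0051 by limma) and from 3.32 ± 0.116 to 10.1 ± 2.52 RPKM with the inhibitor (1.47, adjusted p = 0.000526 by limma). Ccne2 was 2.39 and 2.12 RPKM in the 2 vehicle groups. Of 9 tested genes of cyclin E and A, their kinases and activators, 3 rose and 1 fell in vehicle: Ccne1, the kinase-binding Cks1b (0.82) and the phosphatase Cdc25a (0.37) rose, and Ccnh, the cyclin of the CDK-activating kinase, fell (-0.51). With the inhibitor Ccne1, Cdc25a and Cks1b rose among 10 tested and none fell, although Ccnh fell with RPKM as deposited (-0.63, adjusted p = 0.0133 by limma). Without F2 only 1 rose in vehicle, and with the inhibitor 1 rose without M1 and 1 without F2. Calls over all genes fell in these fits too, from 2201 to 373 in vehicle and from 2520 to 521 and 528 with the inhibitor. In the inhibitor comparison in Ad-Cre cells Ccne1 had a log2 fold change of 0.88, which passed only once preparation was a block (adjusted p = 0.0269 by limma).

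Among the other pocket proteins and the E2F factors, none of 10 tested passed in vehicle. Rbl1, Rbl2 and E2f1 had log2 fold changes of 0.06, -0.04 and 0.28. With the block, E2f1 and the E2F partner Tfdp1 (0.39) rose (adjusted p = 0.0486 and 0.0151 by limma). With the inhibitor E2f6 (0.65) and Tfdp1 (0.81) rose without the block, and 1 gene of the list rose without M1 and 1 without F2. In these 2 leave-outs 521 and 528 of all genes passed, against 2520 in the main fit. Tfdp2, another E2F partner, fell in the comparison with the inhibitor with RPKM as deposited (-0.31, adjusted p = 0.0387 by limma).

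Of 15 tested E2F target genes of S phase entry, 7 rose with Ad-Cre in vehicle and none fell, with a median log2 fold change of 0.41 over the 15 against 0.02 over all genes tested: the replication licensing genes Mcm2, Mcm3, Mcm5, Mcm7 and Cdt1, the helicase cofactor Cdc45 (1.02, the largest) and the sliding clamp Pcna (0.58). With the inhibitor 8 of 15 rose and none fell, with a median of 0.53. The proliferation marker Mki67, singled out after its values were seen, had log2 fold changes of 0.07 and 0.21 and did not pass. The count in vehicle was 2 without F2 and 3 without F1, and with the inhibitor it was 4 without M1, 5 without F1 or F2, and 6 without only the F2 library from the other run. With the inhibitor it was also 5 with RPKM as deposited. Over all genes tested, the number passing in vehicle fell from 2201 to 373 (3.34%) without F2 and 796 without F1. With the inhibitor that number fell from 2520 to 521 without M1, 528 without F2 and 1625 without F1. It was 1705 without only the F2 library from the other run.

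Turnover genes of cyclins and inhibitors passed in 2 of 10 cases in vehicle, against 19.0% of all genes, and in 2 of 10 with the inhibitor, against 21.7%. Upstream regulators passed in 3 of 13 cases in vehicle and 2 of 13 with the inhibitor. The median log2 fold changes in vehicle were -0.16 and -0.04. Of 10 tested turnover genes, Fbxw7, the ubiquitin ligase subunit that targets cyclin E (-0.53), and Gsk3b, a kinase that marks cyclin D1 for export and decay (-0.40), fell in vehicle and with the inhibitor, and none rose in these fits. No turnover gene passed in vehicle with any 1 preparation left out or with RPKM as deposited, and 4 fell with the block. With the inhibitor none passed without M1 or without F2, 1 fell without only the F2 library of the other run, and 4 fell with RPKM as deposited. With the inhibitor and the block, the ubiquitin ligase subunit Rbx1 rose (0.46, adjusted p = 0.0277 by limma) beside the fall of Fbxw7 and Gsk3b. Of 13 tested upstream regulators in β cells, the prolactin receptor Prlr (-1.16), Foxo1 (-0.67) and Irs2 (-0.44) fell in vehicle, and Prlr and Foxo1 with the inhibitor. In vehicle 1 passed without F1, 1 without M1 and none without F2, and with the inhibitor none passed without M1 and 1 without F2. Over all genes, 796, 700 and 373 passed in these vehicle leave-outs and 1054 without M2, against 2201 in the main fit. With the inhibitor 521 passed without M1 and 528 without F2, against 2520. For the inhibitor with either virus, and for the interaction, no gene of the 6 lists passed without the block. With it, Ccne1, Tfdp1 (0.48, adjusted p = 0.0251 by limma) and Gsk3b (-0.38, adjusted p = 0.0408 by limma) passed for the inhibitor in Ad-Cre cells.

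Markers of cell types were tested in the same comparisons, and their part in the values of the 6 lists was not tested. In vehicle 2 of 9 β cell markers fell with Ad-Cre (median log2 fold change -0.78), the glucose-6-phosphatase subunit gene G6pc2 (-1.93) and the hormone gene Ucn3 (-2.08), against 19.0% of all genes passing. The count was 3 with RPKM as deposited, 5 by quantile normalization and 6 with the block. Of 7 tested macrophage and leukocyte markers 2 rose (median 0.91), 1 with RPKM as deposited and 4 with the block, and none of 6 tested stellate and fibroblast markers passed (median 0.80).

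With the inhibitor 4 of 9 β cell markers fell (median -0.82), namely G6pc2, Ucn3, the transcription factor gene Mafa and the glucose transporter gene Slc2a2, against 21.7% of all genes. The count was 5 with RPKM as deposited and 6 by quantile normalization, and with the block 6 fell and Ins2 rose. Of 4 tested δ and PP cell markers 1 rose, none by quantile normalization and 3 with the block. Of 3 tested duct cell markers 1 fell, and 2 did with RPKM as deposited. None of 8 tested stellate and fibroblast markers passed (median -0.85), but 5 fell with the block, where 1 of 6 α cell markers rose. Macrophage and leukocyte markers did not pass there (median -0.01).

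**Figure D5:**
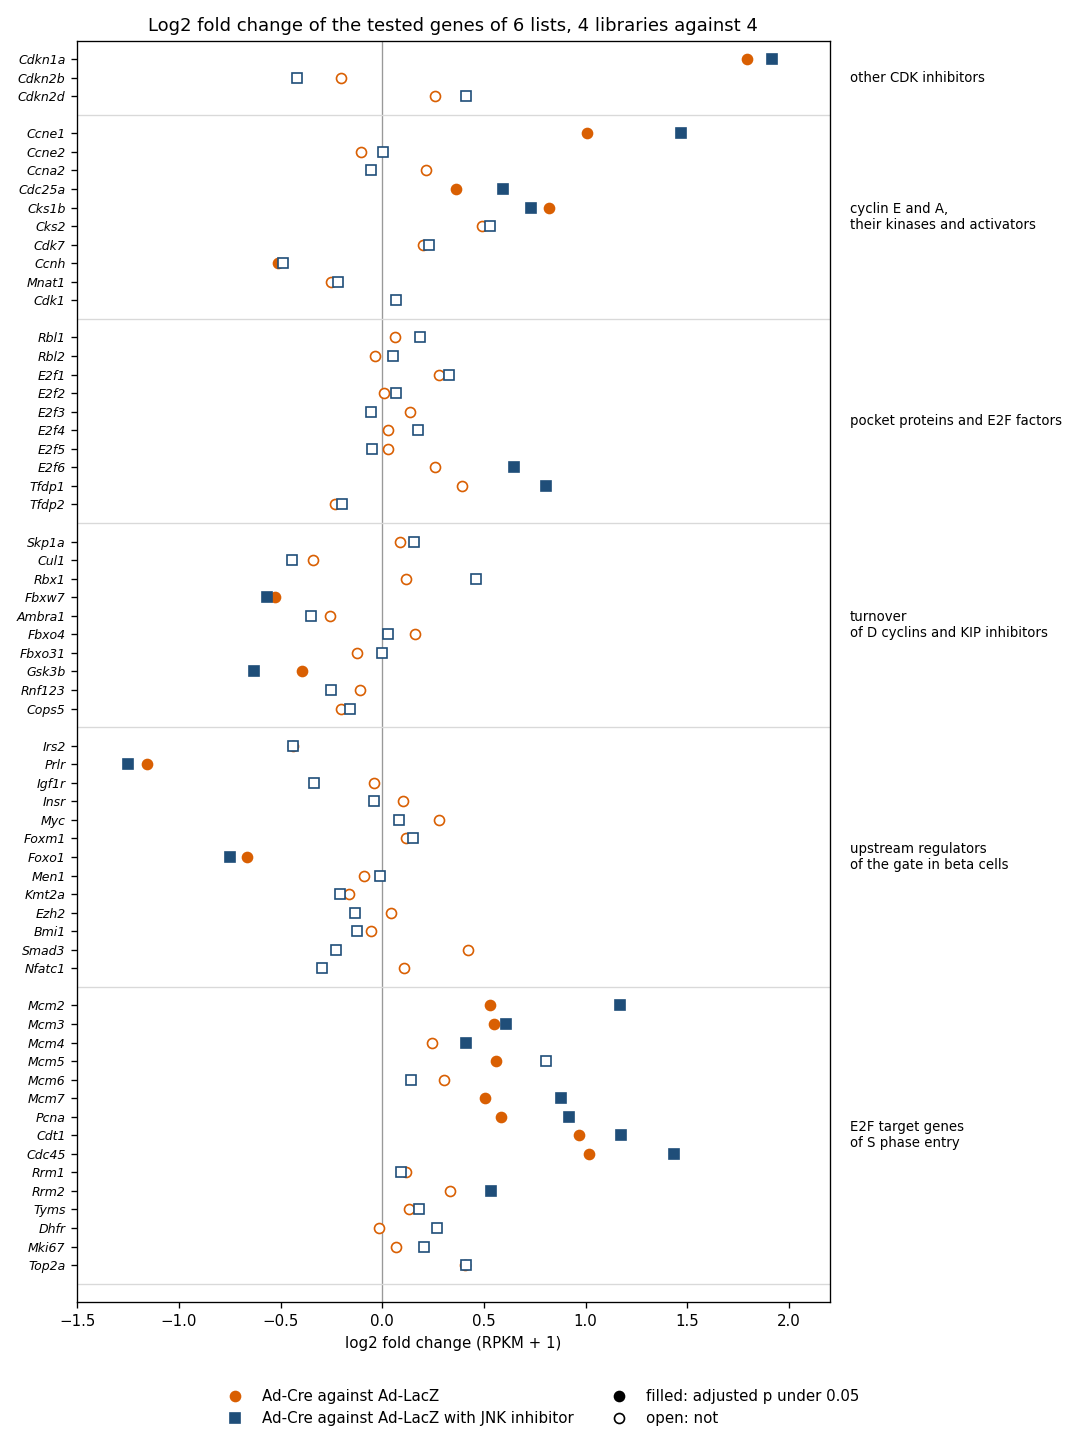
Log2 fold change of RPKM + 1, Ad-Cre against Ad-LacZ, for the tested genes of 6 lists in vehicle (circles) and with the JNK inhibitor (squares); filled symbols passed an adjusted p of 0.05, and the symbols of Irs2 and Top2a nearly coincide. Cdkn1a lies farthest to the right, at 1.79 and 1.92, and of 15 E2F targets 14 lie to the right of 0 in vehicle and 15 with the inhibitor.

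The genes whose pattern was most like that of Ccnd1 were ranked over the 16 libraries, on log2 values minus the mean of their preparation, among 12274 genes. They were Hinfp (Pearson r = 0.990), Lman2 (0.981) and Eif2ak3 (0.979), as a description of libraries that share groups and preparations. Eif2ak3, which encodes the stress sensor PERK, averaged 16.8, 25.9, 15.2 and 23.5 RPKM in Ad-LacZ + DMSO, Ad-Cre + DMSO, Ad-LacZ + JNK Inh and Ad-Cre + JNK Inh. Of the 9 other genes of the switch, Cdkn1c had the highest r with Ccnd1 (0.752) and Rb1 the lowest (-0.804).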

How the data were processed

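Poly(A) RNA-seq libraries were aligned and counted by the authors, who deposited 1 table of RPKM values per gene and library (mouse genome, GRCm38 per the labels' processing notes). The study's methods cite STAR for alignment. Its version, the counting program and the counting strand are not given in the sources used here. The table also held 3 columns that match no sample and were not used. Depth, 7720000 to 25470000 reads per library, was recovered from RPKM and exon length (25093 of 25105 genes had a length): 91.9% to 93.0% of values under 200 reads fell within 0.05 of a whole number. Low counts limit Cdk6, Cdk2 and Cdkn1c most.

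RPKM was scaled by trimmed means (30% of ratios and 5% of levels trimmed), filtered at 1 RPKM in at least 4 libraries of the comparison, and fitted as log2(RPKM + 1) with limma 3.58.1 in R 4.3.3, with Benjamini-Hochberg adjustment over all genes tested and a threshold of 0.05. A fold change on this scale understates that of low genes. The study's own criteria were applied beside it. Exact permutation tests used scipy 1.17.1 on RPKM as deposited. The fit was tested on simulated data. Cultures with the same preparation number came from 1 islet preparation, and their residuals correlated at r = 0.126 to 0.824 in every comparison, so the numbers pair the samples. The main limma and exact permutation tests do not use this pairing, and their p-values measure the spread between the 4 libraries of each group. The p-values with the block and of the sign-flip test measure the spread of differences within the 4 preparations. Alternatives were the pseudocount, the filter, the scaling, the preparation block, variance without a trend, 1 fit of 16 libraries and leaving out each preparation. Leaving out the F2 library of the other run, the leave-outs without a filter and those of the lists, and the exact tests on scaled RPKM, were added after seeing the data.

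The genes and lists were chosen with earlier results of these data known. All 10 genes are named. Of the lists, genes that passed and Cdkn1a, Cdkn2a, Cdkn2b, Cdkn2d, Ccne1, Ccne2, Rbl1, Rbl2 and E2f1 are named, with the 3 genes most correlated with each gene of the 10 that passed.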

Additional observations from a re-analysis of the deposited data

Results flagged for a closer look

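In 2 of 48 sets of 4 libraries, 1 library stood apart from the others by Dixon's test at the 95% level, a rate near the 1 in 20 that chance gives. Cdk4 in Ad-LacZ + JNK Inh was lowest in F1, at 25.1 RPKM against 34.3 to 35.7 RPKM in M1, M2 and F2, with a gap of 0.867 of the range. The Ccnd2 share of D cyclin RPKM in Ad-Cre + JNK Inh was highest in M2, at 54.9% against 47.6% to 48.1% in F1, M1 and F2, with a gap of 0.924 of the range.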

How the results depend on the processing

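In vehicle, the count of the 10 genes passing for the virus was 1. It went to 2 with no filter or a filter at 0.1 RPKM (Cdkn1c added) and with the replicate block (Rb1 added). It lay between 0 and 1 with 1 preparation left out, at 0 without F2. Of all genes, 19.0% passed in the main fit, 6.74% with no filter and 11.3% with a filter at 0.1 RPKM. With the block 34.7% passed, and without F2 3.34%. By the study's criteria the count went from 1 to 2 with no filter and with a filter at 0.1 RPKM. With the inhibitor present it went from 1 to 2 with RPKM as deposited, a filter at 0.1 RPKM, quantile normalization and all 16 libraries fitted together, and lay between 0 and 3 with 1 preparation left out. For the inhibitor in Ad-Cre cells it went from 0 to 1 with the replicate block. By the study's criteria it went there from 1 to 0 with no filter or a filter at 0.1 RPKM, to 2 with the block, and to between 0 and 2 with 1 preparation or the F2 library of the other run left out. For the inhibitor in Ad-LacZ cells and the interaction it was 0 under every alternative run. The Ccnd2 share difference of -14.8 points had an exact sign-flip p of 0.125 within preparations, the smallest possible, and ranged from -15.4 to -13.9 with 1 preparation left out, where 3 against 3 cannot go below an exact p of 0.1. At the main filter, blocking on preparation changed no other call among the 10 genes. In the fit without a filter, Cdk2 for the virus in vehicle passed with the block (adjusted p = 0.0459 by limma) and not without it (0.228). The cause of these changes was not tested, beyond the fewer samples of the leave-outs and the genes a filter admits.

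Of 39 fitted log2 fold changes, 25 kept their sign and 14 did not, none of the latter passing under any setting and none above 0.19 in size. For the inhibitor in Ad-Cre cells, Ccnd1 became 0.00057 with a filter at 0.1 RPKM and 0.011 with all 16 libraries, Cdk4 became -0.11 as deposited and -0.038 by quantile, Cdkn2c became -0.014 as deposited, and Rb1 became 0.016 by quantile. In Ad-LacZ cells Ccnd3 became -0.015 with no filter, -0.010 with a filter at 0.1 RPKM, -0.0089 as deposited and -0.0046 by quantile. For the virus with the inhibitor Cdkn2c became -0.066 as deposited, and for the interaction Cdk2 became 0.049 and Cdkn2c 0.053 by quantile. With 1 preparation or library left out, Cdkn2c ranged from -0.065 to 0.18 for the virus and from -0.0060 to 0.092 with the inhibitor, where Cdkn1b ranged from -0.23 to 0.0062. For the inhibitor in Ad-Cre cells the ranges were -0.086 to 0.089 for Ccnd1, -0.0039 to 0.075 for Cdk4, -0.027 to 0.15 for Cdkn2c and -0.12 to 0.036 for Rb1, and in Ad-LacZ cells -0.16 to 0.18 for Ccnd3. For the interaction they were -0.080 to 4.98e-05 for Ccnd2, -0.062 to 0.015 for Cdk4, -0.15 to 0.12 for Cdkn2c, -0.17 to 0.11 for Cdkn1b and -0.30 to 0.029 for Rb1. The exact tests were repeated on scaled RPKM. Ccnd2 for the inhibitor in Ad-Cre cells and Rb1 for the virus with the inhibitor went from an exact permutation p of 0.0286 to 0.0857, and Rb1 for the virus in vehicle from 0.0571 to 0.0286. Differences of means changed sign for the inhibitor in Ad-Cre cells, to 2.02 RPKM for Ccnd1, 0.936 for Cdk4, 0.105 for Cdk2, 0.163 for Cdkn2c and 0.0683 for Rb1, and for the virus with the inhibitor to 0.0660 RPKM for Cdkn2c, none of them at an exact p under 0.05.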
